A study of Mus musculus with 20 samples.

Results

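Mature microRNAs of the miR-193 and miR-365 clusters were examined in small RNA sequencing of mouse liver. They were chosen by name, as every deposited entry of mmu-miR-193a, mmu-miR-193b or mmu-miR-365 with any locus number and either arm, which gave 7 of the 1509 mature microRNAs listed. The 7 are mmu-miR-193a-3p, mmu-miR-193a-5p, mmu-miR-193b-3p, mmu-miR-193b-5p, mmu-miR-365-3p, mmu-miR-365-2-5p and mmu-miR-365-1-5p. Of these, 5 were listed for all 10 mice, and miR-365-3p and miR-365-1-5p were listed for 5 mice only. Livers came from 5 PiZ mice and 5 wild-type (WT) mice, all C57BL/6 and 6 weeks of age, and each library was sequenced in 2 technical runs that were summed, so the mouse is the replicate. In PiZ mice a transgene encodes human alpha-1 antitrypsin in its Z form. The normal protein is a protease inhibitor secreted by hepatocytes, and much of the Z form is held back in their endoplasmic reticulum. The labels give neither the transgene's promoter nor the sex of the animals, and small RNA libraries do not read the transgene mRNA, so the genotype is taken from the labels alone.

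A microRNA is cut from a hairpin by Drosha and Dicer. Either arm of the hairpin, named 5p or 3p, can be loaded into an Argonaute protein, and the seed near the 5′ end of the loaded strand pairs with target mRNAs. The mouse genome holds each family as paired hairpins, a miR-193 hairpin followed by a miR-365 hairpin. The miR-193b and miR-365 pair is known from mouse brown fat, where it was reported to promote brown adipocyte formation, and from muscle. miR-193a-3p is known from human cancer cells as a repressor of MCL1, which encodes a protein that protects cells from apoptosis.

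The 4 hairpins are shown because the contrast between their arms and between the pairs carries the results. Sequences and coordinates are from RefSeq on GRCm38.p6, all on the plus strand, and capitals mark the 5p and then the 3p mature arm. Mir193a lies at chr11:79711969-79712034 and Mir365-2 at chr11:79726400-79726511. Mir193b lies at chr16:13449523-13449601 and Mir365-1 at chr16:13453840-13453926.
Mir193a: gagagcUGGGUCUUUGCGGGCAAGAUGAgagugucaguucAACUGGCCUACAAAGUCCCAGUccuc
Mir365-2: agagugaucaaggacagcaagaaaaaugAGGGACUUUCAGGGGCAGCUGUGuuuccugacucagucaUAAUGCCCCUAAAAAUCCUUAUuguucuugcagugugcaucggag
Mir193b: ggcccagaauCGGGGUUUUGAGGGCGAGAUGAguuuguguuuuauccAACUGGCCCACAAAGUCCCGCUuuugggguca
Mir365-1: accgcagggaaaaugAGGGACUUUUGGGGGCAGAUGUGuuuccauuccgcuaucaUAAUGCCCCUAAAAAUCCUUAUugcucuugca

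Between Mir193a and Mir365-2 lie 14365 bases, and between Mir193b and Mir365-1 lie 4238 bases. The nearest annotated protein-coding gene upstream of Mir193a is Rab11fip4, at 13952 bases, and the nearest upstream of Mir193b is Mrtfb, at 31993 bases. The long noncoding RNA genes Gm32817 and Gm53058 span both hairpins of the chromosome 16 pair. An annotated tRNA gene lies upstream of each pair, n-TTcgt3 at 7247 bases from Mir193a and n-TTcgt5 at 12128 bases from Mir193b.

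The 3p mature forms are shown next with the seed, bases 2 to 8 from the 5′ end, in capitals.
miR-193a-3p: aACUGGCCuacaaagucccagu
miR-193b-3p: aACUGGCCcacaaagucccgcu
miR-365-3p: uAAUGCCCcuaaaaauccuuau
Both miR-193 3p forms share a seed that no other mature mouse microRNA in the RefSeq table has. With positions counted from 1 at the 5′ end and miR-193a-3p given first, miR-193b-3p differs at 3 of 22 positions, U9C, A20G and G21C, of which 0 lie in the seed. The 5p forms differ more, at 5 of 22 positions from miR-193a-5p to miR-193b-5p (U1C, U5G, C6U, C11A and A16G), of which 2 lie in the seed. miR-365-3p is identical from both loci, whereas miR-365-1-5p differs from miR-365-2-5p at 3 of 23 positions, C10U, A11G and C19A, again with the same seed.

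Summed totals ranged from 2433273 to 10780801 reads in PiZ mice and from 1307857 to 10012788 reads in WT mice. The deposited files hold 2 feature lists, a longer one of 1399 microRNAs (PiZ mice 1 and 2, WT mice 1 to 3) and a shorter one of 990 (PiZ mice 3 to 5, WT mice 4 and 5), and the list was a term of the model. Levels are read counts scaled to a library of 1000000 reads (CPM), with TMM-scaled totals, in which a single read was worth 0.0887 CPM in PiZ mouse 4 and 0.715 CPM in WT mouse 1. Hepatocyte microRNAs, the miR-122, miR-192, miR-194, miR-148a, miR-101a and miR-802 arms, passed the filter on low counts for 12 of 13 listed. Of the 12, 0 passed the genotype test in either direction, beside 31 of 336 (9.23%) over all tested microRNAs. All 5 PiZ mice lay below all WT mice for miR-122-5p and miR-192-3p, and above all WT mice for both miR-148a arms. Their edgeR adjusted p-values ran from 0.0947 to 0.186. The share of all 336 tested microRNAs that separate in this way is not given here, so no hepatocyte trait is read from these arms. The hepatocyte arms summed to between 217467 and 358650 CPM in PiZ livers and between 88057 and 306566 CPM in WT livers. WT mice 1 and 3 stood apart at 88057 and 139840 CPM in this sum, and results are also given without them. In WT livers miR-192-5p stood at 137198 ± 78339 CPM and miR-148a-3p at 55805.5 ± 19401.5 CPM, which is most of the sum. There miR-122-5p stood at 13013 ± 1133 CPM (SD, n = 5 each), so a low sum is not a low level of every hepatocyte arm. In whole liver, fewer cells of a type and less RNA per cell cannot be told apart.

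miR-193a-3p made up nearly all reads of the family, 57375 of the reads of the 7 members over 10 mice, or 98.9%. It averaged 1211.5 ± 798 CPM (SD, n = 10) and ranked 41st by mean CPM of the 336 microRNAs that passed the filter. miR-193b-3p, with the same seed, averaged 7.95 ± 3.60 CPM over the same 10 mice. miR-193a-5p, the other strand of the miR-193a hairpin, averaged 3.75 ± 2.61 CPM, and miR-365-2-5p averaged 1.70 ± 0.365 CPM (SD, n = 10 each). miR-193a-3p lay above miR-193b-3p in 10 of 10 mice. Further down the order the neighbours overlapped: miR-193b-3p exceeded miR-193a-5p in 9 of 10 mice, the exception being WT mouse 4, and miR-193a-5p exceeded miR-365-2-5p in 9 of 10, the exception being WT mouse 2. The mature forms are 22 or 23 bases long, so no scaling by length was needed for this order.

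**Figure D1:**
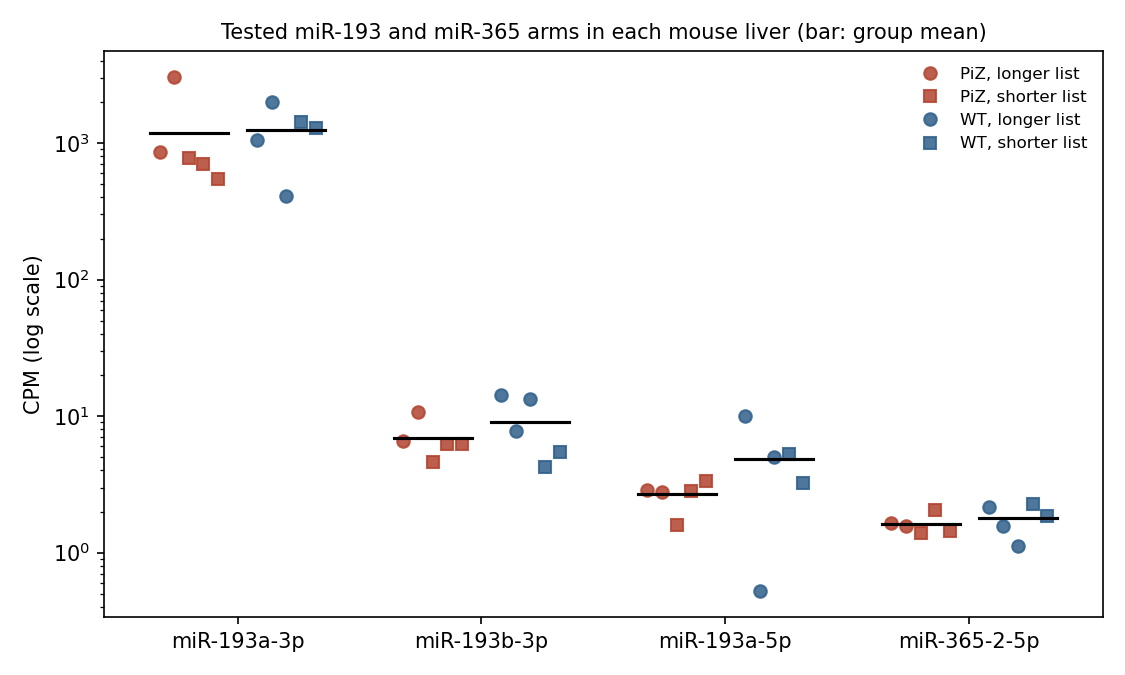
Level in CPM (log axis) of the 4 tested arms in each liver, PiZ mice left of WT mice for each arm; circles are mice of the longer feature list, squares those of the shorter list, and the bar is the group mean. miR-193a-3p sits between 407 and 3040 CPM in every mouse, and the other 3 arms at or below 14.3 CPM.

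The first comparison asked whether PiZ and WT livers differ in these microRNAs. None of the 4 members that passed the filter on low counts differed beyond the spread between mice: 0 of 4 were called at an adjusted p of 0.05 and 0 had an unadjusted p under 0.05 (edgeR quasi-likelihood test, Benjamini-Hochberg adjustment over 336 microRNAs). Across all tested microRNAs 31 of 336 were called, a background of 9.23%. The fitted log2 fold changes of the 4 members were all below 0, between −0.76 and −0.092, beside a median of 0.069 over all tested microRNAs.

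miR-193a-3p stood at 861, 3040, 773, 702 and 550 CPM in PiZ mice 1 to 5, against 1054, 2016, 407, 1426 and 1287 CPM in WT mice 1 to 5. PiZ mouse 2 was the highest of all 10 mice and WT mouse 3 the lowest, and the groups overlapped over most of their range. The reads behind these levels numbered 2104, 7714, 7720, 7906 and 4601 in PiZ mice, against 1474, 3864, 727, 9411 and 11854.5 in WT mice, so counting error is small beside the differences between mice. miR-193a-3p averaged 1185 ± 1043 CPM in PiZ and 1238 ± 585 CPM in WT livers (SD, n = 5 each). The log2 fold change was −0.13 ± 0.49 (SE), with a 95% interval from −1.21 to 0.95 and an edgeR adjusted p of 0.922. On the linear scale that interval runs from 0.432 to 1.94 times the WT level, so with 5 mice a group changes of that size in either direction are not excluded. Without WT mice 1 and 3 the log2 fold change was −0.69 (edgeR adjusted p = 0.316). Leaving out PiZ mouse 2 alone gave −0.78, and leaving out PiZ mouse 5, WT mouse 2 or WT mouse 4 turned the sign, with values of 0.034, 0.011 and 0.058.

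The sign of the fitted miR-193a-3p difference was not the same in the 2 sets of files. In the shorter list it stood at 773, 702 and 550 CPM in PiZ mice, against 1426 and 1287 CPM in WT mice, and these groups did not overlap. With 3 against 2 mice, full separation in either direction has a probability of 0.2 under random labels. The share of all 336 microRNAs that separate in these mice is not given here. The log2 fold change in the shorter list was −1.0 (edgeR adjusted p = 0.283). In the longer list it stood at 861 and 3040 CPM in PiZ mice, against 1054, 2016 and 407 CPM in WT mice, which overlapped, with a log2 fold change of 0.75 (edgeR adjusted p = 0.591). The test of the difference itself, shorter list minus longer list, gave −1.76 ± 0.88 on the log2 scale (95% interval −3.71 to 0.20) with an edgeR adjusted p of 0.883 and an unadjusted edgeR p of 0.0729. Of 336 microRNAs, 0 were called in that test, a background of 0%, and 13 had an unadjusted p under 0.05. The positive value of the longer list rests on PiZ mouse 2. Without that mouse, the 1 PiZ mouse left there, at 861 CPM, lay within the WT range, the fitted log2 fold change of the longer list was −0.43, below 0 as in the shorter list, and the difference between the lists was −0.58 (edgeR adjusted p = 0.934). The lone mouse is assumed in that fit to vary like the others, and it was added after the data were seen. Without WT mouse 2 the difference was −2.40 (edgeR adjusted p = 0.129), and without PiZ mouse 1 it was −2.36 (edgeR adjusted p = 0.985). With all 10 mice, the same difference was 0.12 for miR-193a-5p, 0.69 for miR-193b-3p and −0.35 for miR-365-2-5p, with edgeR adjusted p-values of 0.976, 0.883 and 0.917. Depth moves with the feature list: libraries of the longer list held 1307857 to 2507519 reads and those of the shorter list 7043905 to 10780801 reads. Its part in the result was not tested.

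**Figure D2:**
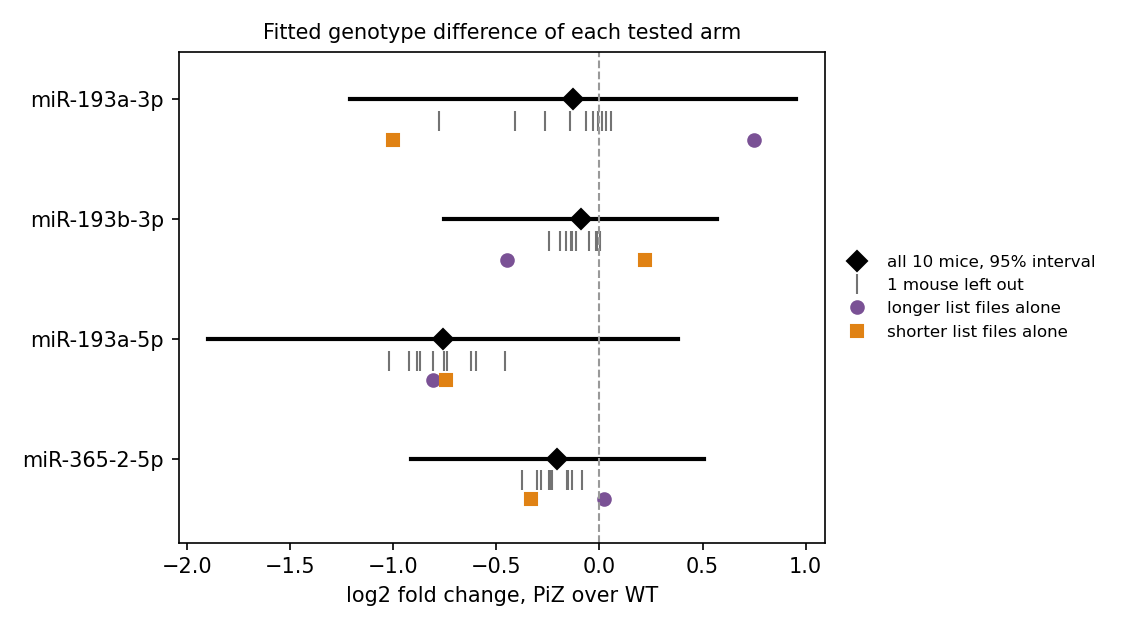
Log2 fold change of PiZ over WT for the 4 tested arms; diamonds and bars are the fit to all 10 mice with its 95% interval, ticks the fits with 1 mouse left out, and the coloured points the fits to each feature list alone. All 4 intervals span 0, and for miR-193a-3p the lists gave 0.75 (longer, with PiZ mouse 2) and −1.0 (shorter).

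miR-193a-5p, the less abundant arm, stood at 2.86, 2.76, 1.60, 2.84 and 3.35 CPM in PiZ mice 1 to 5, against 10.01, 0.522, 5.04, 5.30 and 3.26 CPM in WT mice 1 to 5. PiZ mice lay close together, and the WT mice spread both above and below them. These values rest on 7, 7, 16, 32 and 28 reads in PiZ mice, against 14, 1, 9, 35 and 30 reads in WT mice. PiZ livers had a mean of 2.68 ± 0.647 CPM and WT livers one of 4.83 ± 3.47 CPM (SD, n = 5 each). The log2 fold change was −0.76 ± 0.52 (SE), the lowest of the 4, with a 95% interval from −1.90 to 0.38 and an edgeR adjusted p of 0.411. It was below 0 in each of the 28 alternative analyses, by as little as −0.22 without WT mice 1 and 3 and by as much as −1.02 without WT mouse 2, where the edgeR adjusted p was 0.0988.

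miR-193b-3p, the form known from brown fat, stood at 6.55, 10.6, 4.60, 6.30 and 6.22 CPM in PiZ mice 1 to 5, against 14.3, 7.83, 13.4, 4.24 and 5.43 CPM in WT mice 1 to 5. The highest values were those of WT mice 1 and 3, which have the shallowest libraries and the lowest hepatocyte sums, and the lowest was that of WT mouse 4; the groups overlapped. The reads numbered 16, 27, 46, 71 and 52 in PiZ mice, against 20, 15, 24, 28 and 50.5 in WT mice. PiZ livers had a mean of 6.86 ± 2.25 CPM and WT livers one of 9.05 ± 4.60 CPM (SD, n = 5 each). The log2 fold change was −0.092 ± 0.30 (SE), with a 95% interval from −0.75 to 0.57 and an edgeR adjusted p of 0.899. Without WT mice 1 and 3 it was 0.20 (edgeR adjusted p = 0.663). The part of depth and of the arms behind the hepatocyte sum in these levels was not tested.

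miR-365-2-5p, from the 5p arm of the chromosome 11 hairpin, varied least. It stood at 1.64, 1.58, 1.40, 2.04 and 1.44 CPM in PiZ mice 1 to 5, against 2.15, 1.57, 1.12, 2.27 and 1.85 CPM in WT mice 1 to 5. The ranges overlapped, and the values rest on 4, 4, 14, 23 and 12 reads in PiZ mice, against 3, 3, 2, 15 and 17 reads in WT mice. Its log2 fold change was −0.20 ± 0.32 (SE), with a 95% interval from −0.92 to 0.51 and an edgeR adjusted p of 0.762. Without WT mice 1 and 3 it was −0.25 (edgeR adjusted p = 0.663). PiZ livers had a mean of 1.62 ± 0.256 CPM and WT livers one of 1.79 ± 0.464 CPM (SD, n = 5 each).

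The other 3 members did not pass the filter and are given as reads. miR-193b-5p had 2 reads in PiZ mouse 3 and 2 in WT mouse 5, and 0 in the other 8 mice, where a count of 0 allows up to 3 reads, or 0.266 to 2.15 CPM. miR-365-1-5p, the 5p arm of the chromosome 16 hairpin, had 0, 1 and 0 reads in PiZ mice 3 to 5, against 0 and 2 in WT mice 4 and 5, the mice for which it was listed. miR-365-3p had 0, 1 and 1 reads in PiZ mice 3 to 5, against 0 and 1 in WT mice 4 and 5. No fold change is given for any of them, since both groups were at or under 3 reads.

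More reads were assigned to miR-365-2-5p than to miR-365-3p. In the 5 mice of the shorter list, miR-365-2-5p had 81 reads and miR-365-3p had 3 of 46831775 reads. The mean level of miR-365-3p over these mice was 0.0634 CPM. The miR-365-3p sequence is encoded at both loci. Mature names that every file lists and RefSeq places at 2 or more loci were taken, with miR-365-3p added. Of these 37, 19 reached 10 CPM in the same mice and 25 reached 1 CPM, and miR-365-3p was the 4th lowest. Other names found in the shorter list alone were left out, so the rank is against names that every file lists. How reads matching several loci were counted is not stated in the labels, and its part in the miR-365-3p count was not tested. The same limit touches the 3p forms of miR-193, since WT mouse 5 has fractional counts for both, and a read matching both equally could be shared between them.

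For the miR-193a hairpin, the 5p arm held 0.332%, 0.0907%, 0.207%, 0.403% and 0.605% of the reads of both arms in PiZ mice 1 to 5, against 0.941%, 0.0259%, 1.22%, 0.371% and 0.252% in WT mice 1 to 5. The 3p arm dominated in each mouse, and the groups overlapped. Exact (Clopper-Pearson) 95% intervals cover counting error only. In PiZ livers, the interval of the lowest share, that of mouse 2, ran from 0.0365% to 0.187%, and that of the highest, mouse 5, from 0.402% to 0.873%. In WT livers, the interval of the lowest share, that of mouse 2 with 1 read, ran from 0.000655% to 0.144%, and that of the highest, mouse 3, from 0.561% to 2.31%. On the log2 scale the 5p to 3p ratio averaged −8.45 over PiZ livers and −8.18 over WT livers, with a fitted difference of −0.35 ± 0.91 (SE) and a limma adjusted p of 0.832. That fit took 101 hairpins with a mean of 5 reads or more per arm, of which 0 were called, a background of 0%, and 4 had an unadjusted p under 0.05. With a minimum of 20 reads per arm, 64 hairpins remained and no member hairpin was among them.

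The balance between the miR-193 3p forms, which share a seed, was compared within each library, where scaling has no part. PiZ mice 1 to 5 had 131.5, 286, 168, 111 and 88.5 miR-193a-3p reads for each miR-193b-3p read, against 73.7, 258, 30.3, 336 and 235 in WT mice 1 to 5. The WT mice held both the highest and the lowest ratio, so PiZ lay within the WT range. The mean log2 ratio, with 0.5 reads added to each count, was 7.15 ± 0.64 in PiZ and 7.05 ± 1.47 in WT livers (SD, n = 5 each), a difference of 0.099 (exact two-sided permutation test, p = 0.897, the smallest possible being 0.00794). In the shorter list all 3 PiZ ratios lay below both WT ratios, a difference of −1.24 (exact two-sided permutation test, p = 0.2, which is the smallest that 3 against 2 mice allow). In the longer list the difference was 1.22 (exact permutation test, p = 0.4, smallest possible 0.2), and without WT mice 1 and 3 it was −0.91 (exact permutation test, p = 0.107, smallest possible 0.0357). The 2 file sets gave differences of opposite sign.

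**Figure D3:**
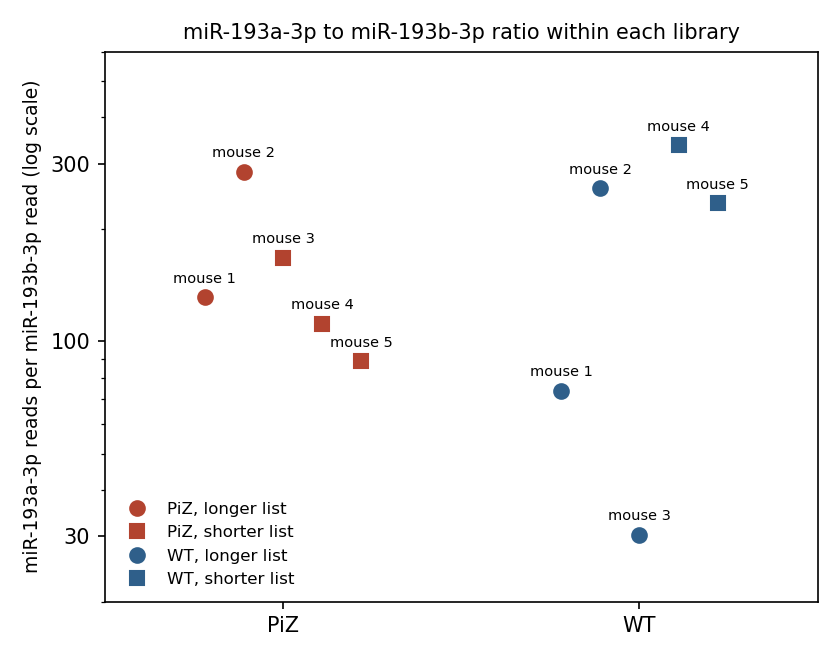
Reads of miR-193a-3p for each read of miR-193b-3p (log axis) in each mouse, PiZ left and WT right; circles mark the longer feature list and squares the shorter list. PiZ mice run from 88.5 to 286 and WT mice from 30.3 (mouse 3) to 336 (mouse 4).

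miR-193a-3p was among the more variable of the abundant microRNAs. Its log2 CPM had an SD of 0.872 over 10 mice, which ranked 16th among the microRNAs at 100 CPM or more, whose median SD was 0.410. Its highest level, in PiZ mouse 2, was 7.47 times its lowest, in WT mouse 3. The technical runs of a mouse differed in the share of reads that were miR-193a-3p by between −3.13% and 0.561%, run 2 against run 1, except for WT mouse 3 at 12.6%. Runs of a mouse thus differed far less than the mice did. The SD was 0.945 for miR-193a-5p, 0.586 for miR-193b-3p and 0.258 for miR-365-2-5p, beside a median of 0.558 over all 336. miR-365-2-5p ranked 318th of 336 by SD and has at most 23 reads in a mouse. The prior count of 2 in these log2 values pulls such low counts together, which lowers its SD and rank. In CPM with no prior count, its highest level was 2.03 times its lowest, against 3.37 times for miR-193b-3p and 19.2 times for miR-193a-5p.

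The microRNAs whose pattern was most like that of miR-193a-3p were named by the highest Pearson r of log2 CPM over the 10 mice, after each file set's mean was subtracted. They were miR-872-3p (r = 0.90), miR-30b-5p (r = 0.86) and miR-1843b-5p (r = 0.86). Levels in 1 library share its depth and scaling, and these are the highest of many values of r, so they describe these mice only. miR-30b-5p averaged 4601 ± 1829 CPM in PiZ and 4888 ± 2311 CPM in WT livers, and miR-872-3p 129 ± 37.8 CPM in PiZ and 151 ± 20.1 CPM in WT livers (SD, n = 5 each). All 3 had log2 fold changes near 0, from −0.19 for miR-872-3p to −0.061 for miR-1843b-5p, with edgeR adjusted p-values from 0.617 to 0.922. In none of the 3 was the swing between mice as wide as in miR-193a-3p.

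Among the members, values of r were lower. For miR-193a-3p, r over the 10 mice was −0.32 with miR-193a-5p from the same hairpin, −0.36 with miR-193b-3p of the same seed and 0.48 with miR-365-2-5p of the neighbouring hairpin. miR-193b-3p had r = 0.57 with miR-193a-5p and −0.06 with miR-365-2-5p. The counts of the 3 less abundant forms are low, so weak values of r say little. The microRNAs most like miR-193b-3p were miR-23a-3p (r = 0.86), miR-92a-1-5p, the 5p strand of a miR-17/92 cluster hairpin (r = 0.83), and miR-574-5p (r = 0.82). miR-23a-3p averaged 271.2 ± 37.5 CPM in PiZ and 265 ± 61.8 CPM in WT livers (SD, n = 5 each), with a log2 fold change of 0.080 and an edgeR adjusted p of 0.863.

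**Figure D4:**
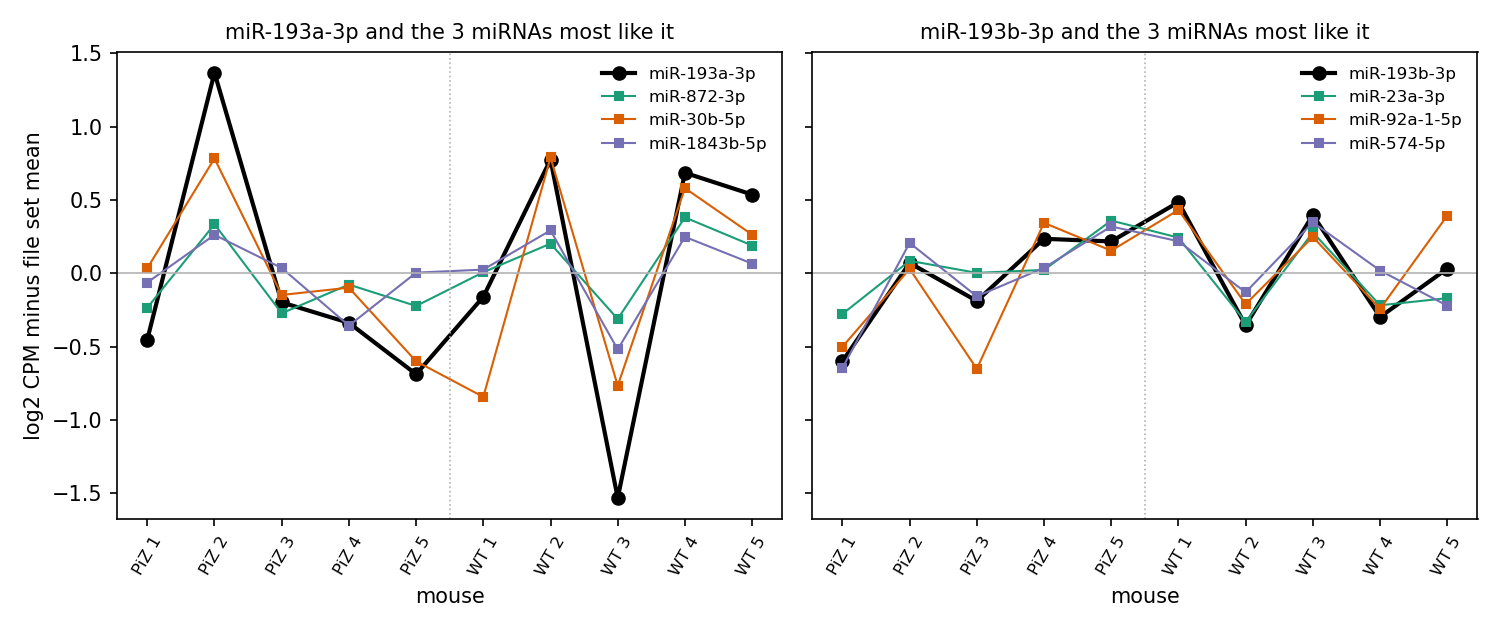
Log2 CPM minus the mean of the mouse's file set, for miR-193a-3p (left) and miR-193b-3p (right) in black with the 3 microRNAs of highest Pearson r in colour, PiZ mice left of WT mice in each panel. miR-193a-3p is highest in PiZ mouse 2 and lowest in WT mouse 3, and miR-872-3p, miR-30b-5p and miR-1843b-5p vary with it (r = 0.86 to 0.90) over a narrower range.

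Other microRNAs with a published role in brown or beige fat were set beside miR-193b and miR-365. Of 34 listed in every file, 26 passed the filter, of which 0 were higher and 1 was lower in PiZ livers by the edgeR test, and the fitted log2 fold change was above 0 for 8 of 26, with a median of −0.14. Over all 336 tested microRNAs 28 were higher (8.33%) and 3 were lower (0.893%), 178 had a log2 fold change above 0, and the median was 0.069. The 1 called was miR-30c-1-3p, the 3p strand of a miR-30c hairpin, with a mean of 38.8 ± 13.0 CPM in PiZ livers, against 69.4 ± 16.02 CPM in WT livers (SD, n = 5 each), a log2 fold change of −0.94 (edgeR adjusted p = 0.0417). The most abundant were miR-26a-5p, with a log2 fold change of −0.44 (edgeR adjusted p = 0.116), and miR-27b-3p, with one of −0.13 (edgeR adjusted p = 0.743). The 26 summed to between 66920 and 92267 CPM in PiZ and between 92181 and 99324 CPM in WT livers. Of the PiZ mice, only mouse 5 reached the WT range, and miR-26a-5p makes up the greater part of these sums.

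Markers of other cells were read from lists of named microRNAs. Biliary, mesenchymal and stellate, endothelial, immune and erythroid lists had 6, 8, 2, 6 and 4 tested members. Of these 0 were called in any list, beside 31 of 336 (9.23%) over all tested microRNAs. All 5 PiZ mice lay above all WT mice for miR-223-3p, miR-200a-3p and miR-141-3p (edgeR adjusted p = 0.0632, 0.109 and 0.113). The share of all 336 tested microRNAs that separate in this way is not given here, so no trait of a list is read from them. Fitted log2 fold changes were above 0 for 4 of 6 immune and 6 of 6 biliary arms, beside 178 of 336 over all tested. The immune arms below 0 were miR-146a-5p (−0.13) and miR-155-5p (−0.058). No arm of these lists had all PiZ mice below all WT mice. The endothelial arms, those of miR-126a, summed to between 23357 and 28800 CPM in PiZ and between 7897 and 41279 CPM in WT livers, with WT mice 1 and 3 lowest at 7897 and 12653 CPM. The biliary arms summed to between 181 and 319 CPM in PiZ and between 191 and 281 CPM in WT livers, and the immune arms to between 1895 and 3035 CPM in PiZ and between 912 and 2171 CPM in WT livers. The mesenchymal and stellate arms summed to between 9932 and 14844 CPM in PiZ and between 5814 and 16906 CPM in WT livers, and the erythroid arms to between 311 and 1751 CPM in PiZ and between 259 and 1079 CPM in WT livers. Of 4 tested pancreas arms, 2 were higher in PiZ livers by the edgeR test, beside 28 of 336 over all tested microRNAs. They were miR-216b-5p, with a mean of 17.9 ± 15.9 CPM in PiZ livers, against 0.0303 ± 0.0678 CPM in WT livers, and miR-217-5p, with a mean of 4.70 ± 4.47 CPM in PiZ livers, against 0.0303 ± 0.0678 CPM in WT livers (SD, n = 5 each). Each of these WT means is a single read in WT mouse 4, where 1 read was worth 0.152 CPM. Both arms thus passed the filter through the PiZ mice. As 4 of 7 listed pancreas arms passed it, the count of 2 among 4 depends on that filter. Of the other arms, miR-216a-5p had a log2 fold change of 4.12 (edgeR adjusted p = 0.0579) and miR-375-3p one of −0.077 (edgeR adjusted p = 0.932). The 4 summed to between 12.2 and 80.9 CPM in PiZ and between 5.74 and 17.2 CPM in WT livers.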

How the data were processed

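Per the labels' protocols, frozen livers were extracted with the miRNeasy kit, and 1 µg of each RNA went into a TruSeq small RNA library, with up to 12 libraries to a lane. The authors deposited estimated counts per mature microRNA for each of 20 runs, a few of them fractional. The submitters' processing notes name CASAVA. The aligner, the release of miRBase, the genome build and the handling of reads that match several microRNAs were not given in the sources used here.

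Both runs of a mouse were added and rounded to whole reads. The analysis used the 880 microRNAs that every file lists, which hold 99.999% or more of each file's reads. filterByExpr kept 336 of them. These were tested between genotypes with edgeR 4.0.16 (TMM scaling, quasi-likelihood test, Benjamini-Hochberg adjustment, threshold 0.05), and the model held the feature list as well as the genotype. Arm balance used limma 3.58.1, alternatives used DESeq2 1.42.0, and the ratio used an exact permutation test in scipy 1.17.1. Log2 CPM used a prior count of 2 for the spread over mice and for Pearson r, and 0.5 added reads for the gap ratios. The procedure was checked on simulated data. The labels do not say how the mice were bred or housed, so p-values measure the spread between these animals. PiZ and WT mice with the same number are different animals, and the numbers pair nothing. The members and lists were chosen with earlier results of these data known. The microRNAs named are the members and the 3 most like miR-193a-3p and miR-193b-3p. From the brown fat list they are the 2 most abundant, the called and those that separate the groups fully. From the cell type lists they are those called and those given to qualify a sum or a count. Exact intervals cover counting error only.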

Additional observations from a re-analysis of the deposited data

Results flagged for a closer look

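miR-193a-3p in PiZ livers had 1 mouse far from the others: PiZ mouse 2 stood at 3040 CPM, and the next highest, PiZ mouse 1, at 861 CPM. On the log2 scale that gap was 0.738 of the group's range, above the 95% limit of 0.71 for 5 samples (Dixon's gap ratio). miR-193a-5p in PiZ livers was lowest in PiZ mouse 3, at 1.60 CPM from 16 reads. On the log2 CPM scale with 0.5 reads added to each count it stood at 0.72, and the next lowest, PiZ mouse 4, at 1.53, a gap of 0.770 of the range. These were 2 of 10 groups of 5 examined, and chance flags about 1 in 20.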

How the results depend on the processing

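No member was called under any of the 28 alternatives to the genotype test (other scalings, filters, tools, models, runs, file sets and left-out mice). Of 111 member values, 100 kept their direction and 11 reversed, with adjusted p-values from 0.0988 to 0.995. Calls over all tested microRNAs were 31 of 336, against 50 of 336 with DESeq2, 7 of 336 with limma-voom and 19 of 336 with run 1 alone. With other filters they were 83 of 852 (no filter) and 19 of 314 (10 reads in 5 mice). With 1 mouse left out, calls of 336 ranged from 8 (without WT mouse 4 or 5) to 53 (without PiZ mouse 5). They were 1 without WT mice 1 and 3, 82 without those and PiZ mouse 5, and 0 in the shorter list alone.

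miR-193a-3p was −0.13, and 0.75 in the longer list alone. With 1 mouse left out it ranged from −0.78 to 0.058. Its difference between the file sets (−1.76) ranged from −2.40 without WT mouse 2 to −0.58 without PiZ mouse 2, where the longer list's value turned to −0.43. miR-193b-3p (−0.092) reversed to 0.20 without WT mice 1 and 3, to 0.16 without those and PiZ mouse 5, to 0.22 in the shorter list, was −0.45 in the longer list and −0.36 with no file set term, and lay between −0.24 and 0.0043 with 1 mouse left out. miR-365-2-5p (−0.20) reversed to 0.16 with run 1 alone and to 0.024 in the longer list, was −0.89 with run 2 alone, and lay between −0.37 and −0.084 with 1 mouse left out. With the run number as a replicate block and the mouse as a random term, miR-193a-3p was −0.16 (adjusted p = 0.857 in limma) and miR-193b-3p reversed to 0.14. The log2 ratio of miR-193a-3p to miR-193b-3p (0.099) reversed to −1.24 in the shorter list and −0.91 without WT mice 1 and 3, and ranged from −0.44 to 0.43 with 1 mouse left out. The causes were not tested. Upper quartile scaling moved the median of all microRNAs by −0.16 and miR-193a-3p to −0.32. No hairpin of the members reached 20 reads per arm in any arm alternative, and ratios with miR-365-3p were not run, since it is listed for 5 mice. Depth limits the 3 scarcer tested arms, at 1 to 71 reads a mouse.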
